A study of Mus musculus with 8 samples.

Results

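Lung regrowth was followed at 6 hours and 1, 3 and 7 days after surgery in adult female C57BL/6 mice of 10 to 12 weeks, which had either the left lung removed (PNY, left unilateral pneumonectomy) or a thoracotomy with no resection (SHAM). The arrays described here are those of 7 days and of 3 days, 4 of the 8 arrays of the series: 1 PNY and 1 SHAM array at 7 days and 1 PNY and 1 SHAM array at 3 days. Each array (an Affymetrix whole-genome mouse array) holds RNA from the perfused lungs of 8 mice pooled, so it gives a mean over a pool and not the spread between mice, and precision is limited by the small number of arrays. All mice shared the anesthesia, ventilation and antibiotic. The analgesic buprenorphine was given after surgery and then as needed, for less than 3 days. PNY pools lack the operated left lung, whereas SHAM pools had none removed. The question put to these arrays is which genes differ between 7 and 3 days in the same way after both operations, and which differ after only one of them.

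After pneumonectomy the remaining lobes of a mouse enlarge over days to weeks, and cells of the alveolar wall, endothelium and mesothelium divide while collagen and elastic fibers are laid down. Opening the chest by itself wounds the pleura and brings neutrophils, monocytes and macrophages to the lung surface. Genes of cell division follow a program in which DNA is copied in S phase and the chromosomes are then parted in mitosis, and many mitotic genes are switched on together in G2 through a CCAAT box and a cell cycle genes homology region in their promoters.

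Values are log2 expression levels per probe set, a set of short probes for 1 transcript, after RMA normalization by the authors. For each of 18193 genes the probe set of the highest average level was taken. A difference is the level at 7 days minus that at 3 days, so a positive value stands for a higher level at 7 days, and a difference of 1 on the log2 scale is 2-fold. Surfactant protein C (Sftpc), which marks alveolar type II cells, lay between 14.66 and 14.69 on the 4 arrays, and the club cell secretory protein Scgb1a1 between 14.71 and 14.77, as in lung tissue. With 1 array per surgery and day a difference within PNY or within SHAM has no replicate and no test. In tissue RNA, fewer cells of a type and less RNA per cell cannot be told apart.

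Over both surgeries limma called none of 45037 probe sets different between 7 and 3 days at an adjusted p under 0.05 (0.0%), while 969 were higher and 879 lower at an unadjusted p under 0.05. The smallest adjusted p was 0.302, that of the chemokine Cxcl5. The test of whether PNY and SHAM differ in their change also called none (0.0%), with 706 probe sets in one direction and 902 in the other at an unadjusted p under 0.05, and the smallest adjusted p of 0.522 was that of the macrophage enzyme Arg1. With no difference anywhere, a share of about 0.05 of the 45037 would pass the unadjusted limit. The totals of 1848 in the first test and 1608 in the second were below that share. A trended and robust variance prior called 2 probe sets in the first test, those of Cxcl5 and the clock repressor Nr1d2, and 4 in the second, with Arg1 among them. An exact permutation test of 2 arrays against 2 could not go below a two-sided p of 0.333. What follows therefore describes differences of size and does not list test results.

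Within PNY 167 genes had a level at 7 days that was 1.5-fold or more above that at 3 days (0.918% of all genes) and 144 one as far below it (0.792%), against 169 higher (0.929%) and 191 lower (1.05%) within SHAM. At least 1.5-fold higher in both surgeries were 21 genes (0.115%), which is 12.6% of those higher in PNY, where 0.929% of all genes were higher in SHAM, and 12.4% of those higher in SHAM. The 18 genes lower in both (0.0989%) made up 12.5% of those lower in PNY, where 1.05% of all genes were lower in SHAM, and 9.42% of those lower in SHAM. Nearly as many genes, 15 (0.0824%), were lower in PNY and higher in SHAM, whereas 1 gene (0.0055%) was higher in PNY and lower in SHAM. A further 90 genes were higher (0.495%) and 53 lower (0.291%) in PNY with less than 1.2-fold difference in SHAM, and 91 were higher (0.5%) and 129 lower (0.709%) in SHAM with less than 1.2-fold difference in PNY. The balance of directions in SHAM turned with the features counted, since 831 probe sets were higher and 591 lower there, and 107 genes above the median level were higher and 82 lower. Likewise in SHAM alone 511 probe sets were higher and 409 lower. Across the 12213 genes whose level lay above the median of all probe sets, the differences within PNY and within SHAM had a Pearson's r of 0.11, as a description over genes of arrays that were normalized together.

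The distances between the 4 arrays were of like size. The SD of the differences over all probe sets was 0.219 for PNY at 7 days against PNY at 3 days and 0.258 for SHAM at 7 days against SHAM at 3 days. The same SD was 0.277 for PNY against SHAM at 7 days and 0.224 for PNY against SHAM at 3 days. It was larger between earlier arrays, with 0.372 between 1 day and 6 hours in PNY and 0.363 in SHAM.

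**Figure D1:**
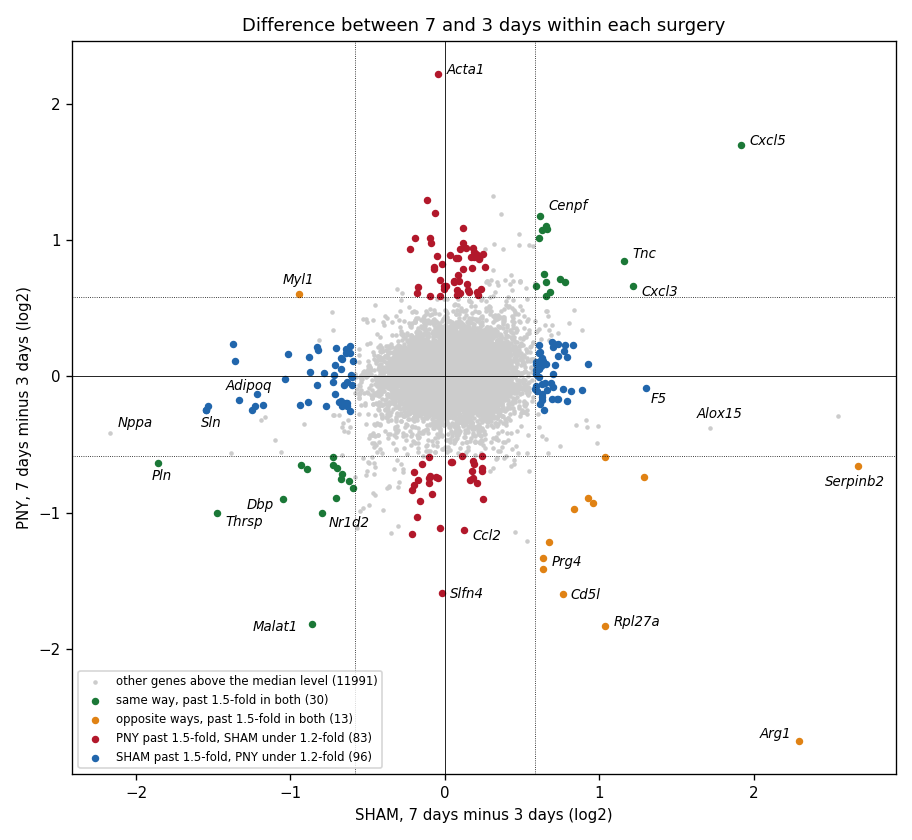
Difference between 7 and 3 days (log2) within PNY (vertical axis) against that within SHAM (horizontal axis) for 12213 genes above the median level, 1 point per gene, with dotted lines at 1.5-fold. The 30 genes that pass 1.5-fold the same way in both surgeries lie in the upper right and lower left corners, with Cxcl5 furthest out, and 12 genes, led by Arg1, lie in the lower right corner, lower in PNY and higher in SHAM.

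Of the 21 genes higher at 7 days after both operations, 6 belong to the mitosis list, 3 to the elastic fiber and matricellular list and 2 to the chemokines. These lists hold 39, 25 and 26 of all 18193 genes. The chemokine Cxcl5 had the largest mean difference above the median level, followed by Tnc and Cxcl3. Cxcl5, which airway and alveolar epithelium can secrete, had a level of 8.19 in PNY and 7.90 in SHAM at 7 days, against 6.49 in PNY and 5.99 in SHAM at 3 days. Both arrays of 7 days thus lay above both of 3 days, and above those of 1 day and 6 hours as well, which were between 4.69 and 5.37. The mean difference was 1.81 ± 0.17 (SE, limma over 8 arrays), a fold change of 3.50, with 3.25-fold in PNY and 3.77-fold in SHAM. Cxcl3, a ligand of the same receptor family, had 7.65 in PNY and 7.95 in SHAM at 7 days, against 6.99 in PNY and 6.73 in SHAM at 3 days, a mean difference of 0.94 ± 0.33 with no overlap of the days. Cxcl2, another such ligand, differed in SHAM alone. Its level was 6.48 in PNY at 7 days and 6.58 in PNY at 3 days, but 6.99 in SHAM at 7 days against 6.11 in SHAM at 3 days.

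Of all 26 chemokine ligands measured, 2 were at least 1.5-fold higher (all genes 0.918%) and 6 lower (0.792%) at 7 days within PNY. Within SHAM 5 were higher (0.929%) and 1 lower (1.05%). The median differences were -0.17 in PNY and 0.10 in SHAM, beside -0.0003 and 0.01 over all genes. Those lower within PNY were attractants of monocytes, eosinophils and T cells and the platelet product Ppbp. Ccl2, the main attractant of monocytes, had 5.79 in PNY at 7 days against 6.91 in PNY at 3 days, while both SHAM arrays lay at 5.78 and 5.65. The eosinophil attractant Ccl24 had 6.02 in PNY at 7 days against 7.36 in PNY at 3 days, and in SHAM it was higher at 7 days, with 6.77 against 6.13. The array of PNY at 3 days was the highest of the 4 for both.

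Matrix genes were also among those higher after both operations. Tenascin-C (Tnc), a glycoprotein of healing wounds and growing tissue, had 7.99 in PNY and 6.34 in SHAM at 7 days, against 7.15 in PNY and 5.18 in SHAM at 3 days. Its difference was about as large in SHAM (2.23-fold) as in PNY (1.80-fold), although the PNY array of 3 days lay above the SHAM array of 7 days. Ltbp2, which binds to elastic microfibrils, had 8.62 in PNY and 8.19 in SHAM at 7 days, against 7.90 in PNY and 7.44 in SHAM at 3 days, and its differences of 0.72 and 0.74 were nearly equal. Ccn4, a matricellular protein induced by Wnt signals, had 7.43 in PNY and 6.72 in SHAM at 7 days, against 6.67 in PNY and 6.08 in SHAM at 3 days.

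These 3 were the members of the list of 25 elastic fiber and matricellular genes that passed 1.5-fold in both surgeries. Within PNY 5 members were higher (all genes 0.918%) and 0 lower at that size, and within SHAM 6 were higher (0.929%) and 0 lower. The medians were 0.22 in PNY and 0.27 in SHAM, and 15 of the 25 were above 0 in both while 0 were below 0 in both. Elastin (Eln), the core of the elastic fiber, was 1.64-fold higher in PNY, with 12.45 at 7 days against 11.74 at 3 days, and 1.31-fold higher in SHAM, with 11.43 at 7 days against 11.04 at 3 days. Fibronectin (Fn1) had the larger difference in SHAM, with 11.51 at 7 days against 10.80 at 3 days, and 11.57 against 11.33 in PNY. The 24 fibrillar collagen and collagen processing genes differed little, with medians of 0.07 in PNY and 0.10 in SHAM. Col3a1, a fibrillar collagen of the lung, had 13.11 in PNY at 7 days and 13.04 in PNY at 3 days, and 12.56 in SHAM at 7 days and 12.70 in SHAM at 3 days. Mmp13, a collagenase of low level, had 4.38 in PNY and 4.42 in SHAM at 7 days, against 3.40 in PNY and 3.15 in SHAM at 3 days.

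Genes of mitosis had more members past 1.5-fold within PNY than any other of the 42 lists. Of 39 genes of G2 and mitosis, 32 were at least 1.5-fold higher at 7 days than at 3 days in PNY and 0 were lower, where 0.918% of all genes were higher. In SHAM 6 were higher (all genes 0.929%) and 0 lower. The median difference was 0.87 in PNY and 0.27 in SHAM. All 39 were above 0 in PNY and 33 in SHAM. In all 39 the level was highest in PNY at 7 days among the 8 arrays, and in all 39 SHAM at 7 days lay below PNY at 3 days. With a gene's probe sets averaged, the median in PNY was 0.67.

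The 6 mitosis genes that passed 1.5-fold in both were Cenpf, Aspm, Cep55, Ube2c, Mki67 and Birc5. This holds for the probe set of the highest level. Other, dimmer probe sets of Cenpf, Aspm and Cep55 did not pass in SHAM. The brightest of these had -0.11 in PNY and -0.10 in SHAM for Cenpf, 0.94 and -0.29 for Aspm, and 1.17 and 0.34 for Cep55. Another of Cenpf had 0.50 in PNY and -0.49 in SHAM. Mki67, whose protein coats mitotic chromosomes and is the usual proliferation marker, had 9.04 in PNY and 7.26 in SHAM at 7 days, against 8.02 in PNY and 6.65 in SHAM at 3 days. Cenpf, a protein of the outer kinetochore, had 7.83 in PNY and 5.69 in SHAM at 7 days, against 6.65 in PNY and 5.07 in SHAM at 3 days. Ube2c, the ubiquitin carrier of the anaphase-promoting complex, had 9.09 in PNY and 7.34 in SHAM at 7 days, against 8.01 in PNY and 6.71 in SHAM at 3 days. In each the level was higher at 7 days within a surgery, but the days overlapped across surgeries because SHAM levels were low. Aspm, which acts at spindle poles, and Cep55, which acts when daughter cells separate, showed the same order of arrays. Aspm had 8.00 in PNY at 7 days against 6.90 in PNY at 3 days and differed by 0.65 in SHAM, and Cep55 differed by 1.08 in PNY and 0.66 in SHAM. Without the PNY array of 7 days the mean difference fitted by limma was 0.10 for Cenpf, 0.21 for Mki67, 0.27 for Ube2c, 0.35 for Cep55 and 0.54 for Aspm, against 0.90, 0.81, 0.85, 0.87 and 0.88 with all 8 arrays. That fit leans on the PNY to SHAM difference of the other days and is not the difference of the arrays left. The SHAM pair itself differed by 0.62 for Cenpf, 0.61 for Mki67 and 0.63 for Ube2c.

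Other mitotic genes differed in PNY with little difference in SHAM. Iqgap3, a scaffold protein of dividing cells, had 8.29 in PNY at 7 days against 7.00 in PNY at 3 days, and 6.25 in SHAM at 7 days against 6.37 in SHAM at 3 days. A dimmer probe set of Iqgap3 differed by 0.03 in PNY and -0.33 in SHAM. Kif11, the motor that separates the spindle poles, had 7.01 in PNY at 7 days against 6.00 in PNY at 3 days, and 5.54 in SHAM at 7 days against 5.73 in SHAM at 3 days. Differences by its other probe sets were 0.99 and 0.53 in PNY, with 0.34 and -0.16 in SHAM. Pimreg, a regulator of metaphase, had 7.61 in PNY at 7 days against 6.41 in PNY at 3 days, and 5.58 in SHAM at 7 days against 5.65 in SHAM at 3 days. Kif4, a motor on chromosome arms, and Anln, which acts in cytokinesis, had differences of 1.09 and 1.02 in PNY and 0.12 and -0.09 in SHAM. Of the 90 genes higher in PNY alone, 13 belong to the mitosis list, which holds 39 of all 18193 genes. The transcription factor Foxm1, which drives many mitotic genes, was an exception, with 6.99 in PNY at 7 days against 6.87 in PNY at 3 days and 6.10 in SHAM at 7 days against 6.60 in SHAM at 3 days. None of the 39 passed limma's adjusted p in the test of the difference between surgeries (0 had an unadjusted p under 0.05), so a difference between PNY and SHAM in these genes was not shown.

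**Figure D2:**
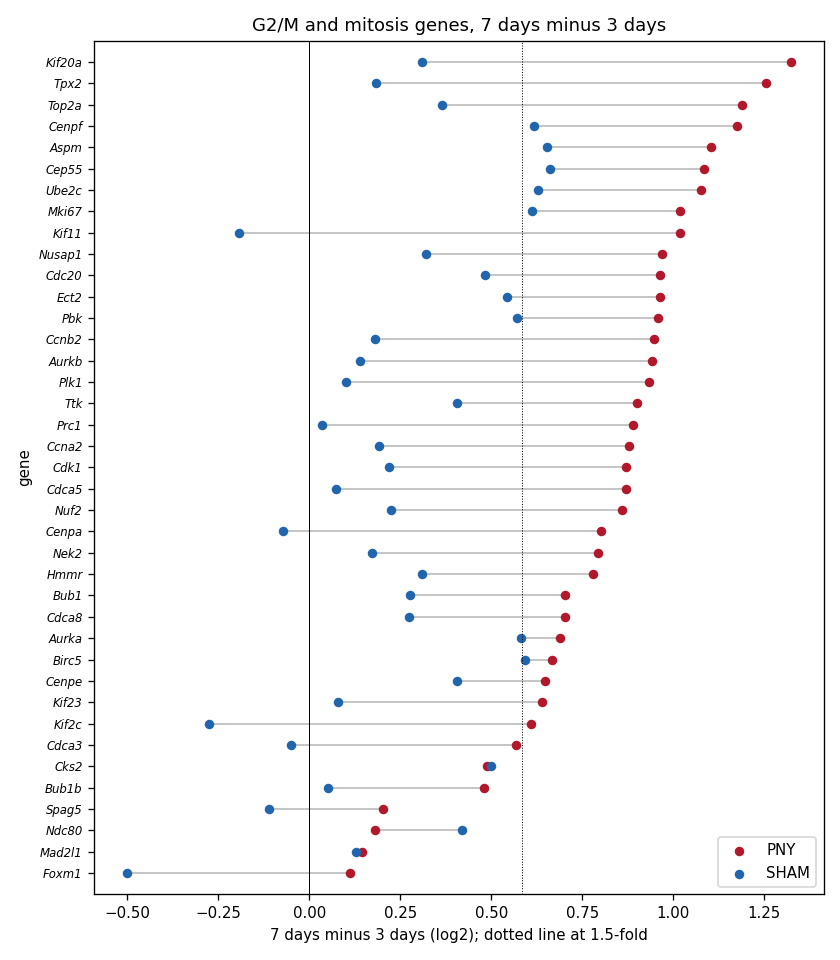
Difference between 7 and 3 days (log2) of the 39 genes of G2 and mitosis, 1 row per gene, with the PNY and the SHAM value joined by a line and a dotted line at 1.5-fold. PNY values lie right of the dotted line in 32 genes, from Kif20a (1.32) down, and SHAM values in 6.

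Genes of S phase differed less than those of mitosis. Of 31, 3 (Exo1, Ccne2 and Pole) were at least 1.5-fold higher within PNY (all genes 0.918%) and 0 within SHAM. The medians were 0.22 and 0.07. Rrm2, the regulated subunit of ribonucleotide reductase, had 9.38 in PNY and 8.18 in SHAM at 7 days, against 8.97 in PNY and 7.65 in SHAM at 3 days. That holds for its probe set of the highest level. Its other probe sets passed 1.5-fold in PNY (0.95 and 0.60) and differed less in SHAM (0.05 and 0.23). Pcna, the sliding clamp of DNA polymerase, lay at 11.52 in PNY at 7 days and 11.54 in PNY at 3 days, and at 11.20 in SHAM at 7 days and 11.18 in SHAM at 3 days.

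The promoters of 4 of the 6 mitosis genes that passed 1.5-fold in both surgeries are shown because they hold both letter patterns for which mitotic promoters are known. They are RefSeq promoters of build GRCm38.p6, running 5′ to 3′ over 300 bases that end 50 bases after the start of the gene. Capitals mark exact matches to CCAAT or its reverse complement ATTGG (the CCAAT box) and to TTTGAA or its reverse complement TTCAAA (the cell cycle genes homology region), and in Ube2c a pair of CCAAT matches on opposite strands share letters.
Cenpf: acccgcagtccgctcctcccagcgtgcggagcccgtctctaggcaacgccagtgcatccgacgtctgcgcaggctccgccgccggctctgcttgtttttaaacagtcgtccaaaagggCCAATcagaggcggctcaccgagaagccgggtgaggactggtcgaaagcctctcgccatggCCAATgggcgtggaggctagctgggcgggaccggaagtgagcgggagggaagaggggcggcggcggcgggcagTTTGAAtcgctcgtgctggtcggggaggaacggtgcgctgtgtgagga
Aspm: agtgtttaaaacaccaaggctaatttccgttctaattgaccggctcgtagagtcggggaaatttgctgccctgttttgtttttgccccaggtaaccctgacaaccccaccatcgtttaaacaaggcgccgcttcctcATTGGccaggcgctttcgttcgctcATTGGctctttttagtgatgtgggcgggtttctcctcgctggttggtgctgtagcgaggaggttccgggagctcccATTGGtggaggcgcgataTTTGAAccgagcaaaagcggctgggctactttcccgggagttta
Ube2c: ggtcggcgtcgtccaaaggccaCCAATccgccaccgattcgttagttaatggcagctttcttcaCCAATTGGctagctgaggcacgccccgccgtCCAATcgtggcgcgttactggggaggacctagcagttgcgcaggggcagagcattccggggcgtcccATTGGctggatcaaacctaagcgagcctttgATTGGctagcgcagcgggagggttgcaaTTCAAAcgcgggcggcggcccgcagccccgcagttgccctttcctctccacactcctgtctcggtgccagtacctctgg
Mki67: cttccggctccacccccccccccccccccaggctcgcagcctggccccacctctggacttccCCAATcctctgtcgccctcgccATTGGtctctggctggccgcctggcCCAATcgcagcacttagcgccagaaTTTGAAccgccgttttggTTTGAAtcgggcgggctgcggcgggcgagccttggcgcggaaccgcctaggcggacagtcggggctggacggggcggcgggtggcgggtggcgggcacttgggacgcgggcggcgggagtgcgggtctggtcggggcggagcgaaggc
Cenpf lies on the minus strand of chr1:189688037-189688336, Aspm on the plus strand of chr1:139454523-139454822, Ube2c on the plus strand of chr2:164769679-164769978 and Mki67 on the minus strand of chr7:135716330-135716629. The Cep55 promoter holds TTTGAA alone and that of Birc5 holds neither. For 33 of the 39 genes the table held 36 promoters. CCAAT was found in 27 of these (75.0%), against 37.4% of all 32851 promoters of the same length, and TTTGAA in 28 (77.8%), against 17.9%. Both stood together in 23 (63.9%), against 6.95%. A match is a description of the letters and was not tested as a binding site.

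Among genes lower at 7 days after both operations, with a level above the median, the 3 with the largest mean difference were Malat1, Pln and Thrsp. Several other probe sets of Malat1 were higher in SHAM, and the other probe sets of Pln were under 1.5-fold in PNY, as given below. The next 3 were genes of the circadian clock. In the clock, Clock or Npas2 paired with Arntl switches on the Per, Cry, Dbp and Nr1d genes. The Per and Cry proteins in turn hold the pair back, and the Nr1d proteins hold Arntl back. Dbp, a factor that passes the rhythm on to other genes, had 6.32 in PNY and 6.67 in SHAM at 7 days, against 7.21 in PNY and 7.72 in SHAM at 3 days. Nr1d2, a repressor of Arntl, had 8.82 in PNY and 9.49 in SHAM at 7 days, against 9.83 in PNY and 10.28 in SHAM at 3 days. Nr1d1, its near relative, had 7.38 in PNY and 8.30 in SHAM at 7 days, against 8.28 in PNY and 9.01 in SHAM at 3 days. In Dbp and Nr1d2 both arrays of 7 days lay below both of 3 days, in Nr1d1 the SHAM array of 7 days lay just above the PNY array of 3 days, and in all 3 SHAM was above PNY on each day. The mean differences were -0.97 ± 0.13, -0.90 ± 0.12 and -0.80 ± 0.14 (SE), with limma's adjusted p of 0.906 for the first 2. A second probe set of Dbp (-0.91 in PNY and -0.90 in SHAM) and of Nr1d2 (-0.77 and -0.75) gave like values.

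Levels of these 3 were lower on each later day from 6 hours on, in both surgeries. Dbp had 8.82, 7.90, 7.21 and 6.32 in PNY and 9.57, 8.51, 7.72 and 6.67 in SHAM, in the order of the time points. The sources used here do not give the hour of day at which lungs were taken, so time after surgery and time of day cannot be told apart. Of the 18 clock genes, 3 were at least 1.5-fold lower in PNY and in SHAM, where 0.0989% of all genes were lower in both. Cry1 and Arntl, which peak at another phase than Dbp, were higher at 7 days on both pairs of arrays but under 1.5-fold, while Nfil3, whose protein competes with Dbp, differed by -0.12 in PNY and 0.53 in SHAM. Cry1 had 8.10 in PNY and 7.95 in SHAM at 7 days, against 7.64 in PNY and 7.48 in SHAM at 3 days. Arntl had 8.34 in PNY and 8.50 in SHAM at 7 days, against 8.09 in PNY and 8.17 in SHAM at 3 days. Npas2 passed 1.5-fold in SHAM alone, with 8.05 at 7 days against 7.22 at 3 days, and 7.68 against 7.45 in PNY, while its second probe set had differences of 0.33 in PNY and 0.36 in SHAM. Of the 21 promoters found for 16 clock genes, 6 (28.6%) held the E-box CACGTG on either strand, against 7.15% of all promoters, and those of Dbp, Nr1d1 and Nr1d2 did not hold it in this window.

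**Figure D3:**
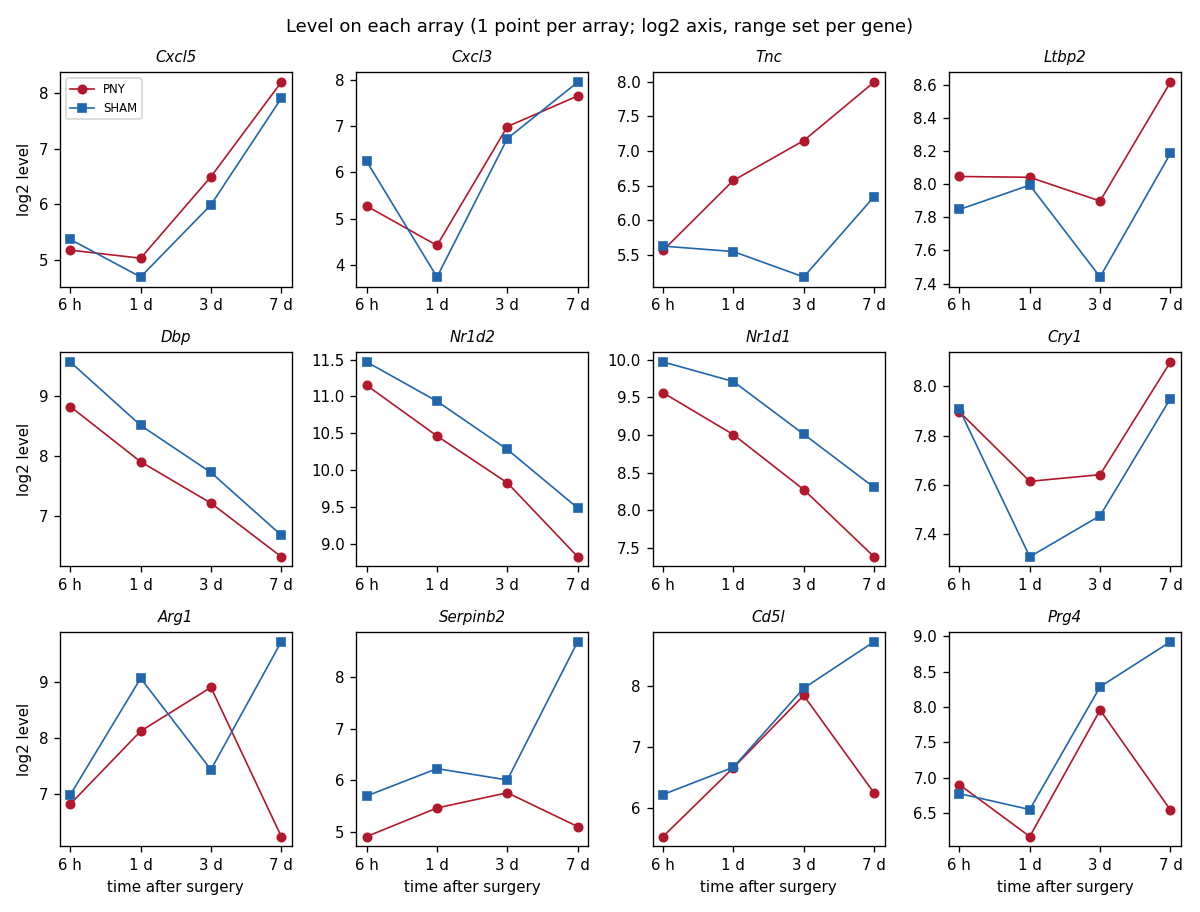
Log2 level of 12 genes on each of the 8 arrays, PNY in red circles and SHAM in blue squares, at the 4 time points from 6 hours to 7 days, with the range of the vertical axis set per gene. Cxcl5 was 1.81 higher and Dbp 0.97 lower at 7 days than at 3 days in the mean of both surgeries, while the lines of Arg1 cross between 3 and 7 days.

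Interferon-stimulated genes, which cells switch on after type I or type II interferon, were lower at 7 days in both groups. Of 27, 23 were below 0 in both surgeries and 0 above 0 in both. At least 1.5-fold lower were 5 in PNY (all genes 0.792%) and 5 in SHAM (1.05%). Those lower in both were 2 (0.0989%), Ifi27l2a and Zbp1. The medians were -0.18 in PNY and -0.43 in SHAM. Ifi27l2a had 10.11 in PNY and 10.12 in SHAM at 7 days, against 10.78 in PNY and 11.01 in SHAM at 3 days. Zbp1, a sensor of nucleic acids, had 7.82 in PNY and 7.94 in SHAM at 7 days, against 8.40 in PNY and 8.67 in SHAM at 3 days. A second, dimmer probe set of Zbp1 was under 1.5-fold in both, with -0.24 in PNY and -0.58 in SHAM. The GTPases Igtp and Iigp1, which guard against intracellular parasites in mice, differed more in SHAM (-0.94 and -0.92) than in PNY (-0.21 and -0.35). In 21 of the 27 the SHAM array of 3 days was the highest of the 8.

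Most mesothelial genes had lower levels at 7 days after both operations. The mesothelium is the cell layer that covers the lung. Of 16 markers, 12 were below 0 in both surgeries and 0 above 0 in both. In PNY 5 were at least 1.5-fold lower (all genes 0.792%) and in SHAM 1 (1.05%), with medians of -0.49 and -0.18. Gene by gene, the PNY difference minus the SHAM difference had a median of only -0.06, and 0 of the 16 had an unadjusted p under 0.05 in limma's test of it. The basonuclin Bnc1 had 7.33 in PNY and 7.69 in SHAM at 7 days, against 8.04 in PNY and 8.36 in SHAM at 3 days. Lrrn4, a membrane protein of this layer, had 8.74 in PNY and 9.17 in SHAM at 7 days, against 9.72 in PNY and 9.71 in SHAM at 3 days. Wt1, the transcription factor of mesothelium and its precursors, differed in PNY alone, with 6.83 at 7 days against 7.95 at 3 days, and 7.79 against 7.83 in SHAM. Krt18, a keratin of the list that lung epithelium also makes, had differences of -0.14 in PNY and -0.08 in SHAM. Outside the list, the secreted epithelial proteins Dmkn and Slpi were lower in both. Dermokine (Dmkn) had 9.77 in PNY and 10.04 in SHAM at 7 days, against 10.53 in PNY and 10.71 in SHAM at 3 days. The antiprotease Slpi had differences of -0.67 in PNY and -0.70 in SHAM.

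Muscle genes differed between the days mainly on 1 array of each surgery. The atria of the heart and the muscle sleeves of the pulmonary veins share their contractile proteins, and skeletal muscle of the chest wall has its own set. Of 17 atrial and cardiac genes, 11 were at least 1.5-fold lower at 7 days in SHAM (all genes 1.05%) and 1 in PNY (0.792%). The medians were -1.10 in SHAM and -0.25 in PNY. Atrial natriuretic peptide (Nppa) had 7.74 in PNY at 7 days and 8.16 in PNY at 3 days, and 5.52 in SHAM at 7 days against 7.69 in SHAM at 3 days. Sarcolipin (Sln), an inhibitor of the calcium pump in atrial and skeletal muscle, had 8.45 in PNY at 7 days and 8.70 in PNY at 3 days, and 7.45 in SHAM at 7 days against 8.99 in SHAM at 3 days. Phospholamban (Pln), the corresponding inhibitor of heart and smooth muscle, passed in both by its probe set of the highest level. It had 6.57 in PNY and 5.95 in SHAM at 7 days, against 7.20 in PNY and 7.80 in SHAM at 3 days. Its other probe sets were under 1.5-fold in PNY (-0.21 and -0.53) and passed in SHAM (-1.38 and -1.32). In 15 of the 17 genes the SHAM array of 7 days was the lowest of the 8. The mean level of the list was 7.49 in PNY and 6.82 in SHAM at 7 days, against 7.67 in PNY and 7.75 in SHAM at 3 days.

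Of 16 skeletal muscle genes, 8 passed 1.5-fold upward (all genes 0.918%) and 0 downward within PNY, and in SHAM 0 were higher and 4 lower (1.05%). Skeletal actin (Acta1) had 8.17 in PNY at 7 days against 5.95 in PNY at 3 days, while SHAM lay at 5.96 at 7 days and 6.00 at 3 days. The fast troponins Tnnc2 and Tnnt3 had differences of 2.71 and 2.05 in PNY and 0.36 and 0.01 in SHAM. Acta1 was also high on the SHAM array of 1 day (7.47), so a raised level was not confined to PNY at 7 days. Myosin light chain 1 (Myl1), made in fast muscle and in the heart, was the only gene that passed upward in PNY and downward in SHAM, with 7.84 in PNY at 7 days against 7.24 at 3 days, and 5.61 in SHAM at 7 days against 6.56 at 3 days. Myoglobin (Mb) and the muscle creatine kinase Ckmt2 were lower in SHAM by 1.36 and 1.37 and differed by 0.12 and 0.24 in PNY. The part that muscle tissue in single pools has in these values was not tested.

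Some genes of fat cells were lower at 7 days too, mostly in SHAM. Thrsp, a nuclear protein of fat synthesis, was lower in both, with 6.45 in PNY and 6.51 in SHAM at 7 days, against 7.45 in PNY and 7.98 in SHAM at 3 days, and a second probe set gave -0.99 and -1.35. Adiponectin (Adipoq), a hormone of fat cells, had 6.83 in PNY at 7 days and 7.01 in PNY at 3 days, and 6.23 in SHAM at 7 days against 7.56 in SHAM at 3 days. Of the 14 adipocyte genes 1 was at least 1.5-fold lower in PNY (all genes 0.792%) and 5 in SHAM (1.05%). The medians were -0.06 in PNY and -0.18 in SHAM. Above 0 were 6 genes in PNY and 4 in SHAM, with 7 below 0 in both surgeries and 3 above 0 in both. Their mean levels were 6.85 in PNY and 6.79 in SHAM at 7 days, against 6.93 in PNY and 7.22 in SHAM at 3 days. The airway protein Bpifa1 also differed in SHAM alone, with 10.66 at 7 days against 12.20 at 3 days, and 11.37 against 11.59 in PNY.

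**Figure D4:**
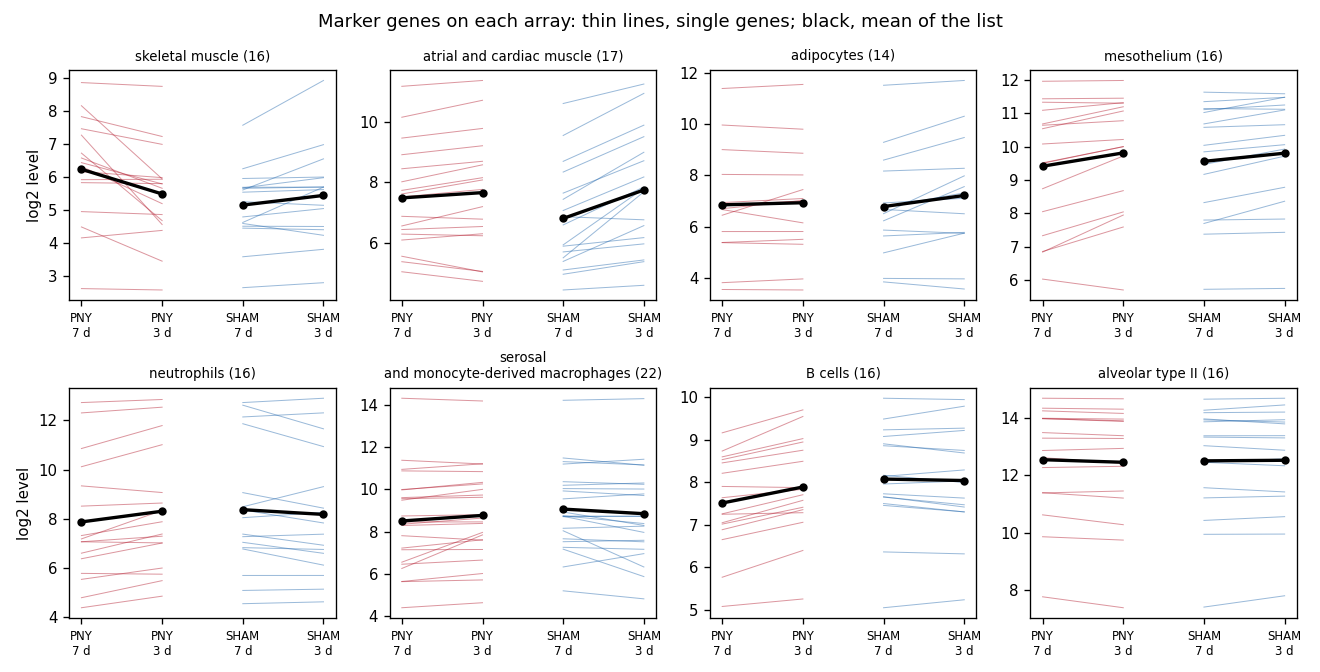
Log2 levels of the marker genes of 8 cell types and tissues on the 4 arrays, ordered PNY at 7 days, PNY at 3 days, SHAM at 7 days and SHAM at 3 days, with a thin line per gene and the mean of the list in black. Atrial and cardiac genes dip on the SHAM array of 7 days (mean 6.82), skeletal muscle genes stand up on the PNY array of 7 days (6.24), and alveolar type II genes are level (12.46 to 12.55).

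Of the genes lower at 7 days in PNY and higher in SHAM, the 5 whose differences lay furthest apart were Arg1, Serpinb2, Rpl27a, Cd5l and Prg4. Arginase 1 (Arg1), which macrophages make under IL-4 and IL-13 and which diverts arginine from nitric oxide, had 6.24 in PNY at 7 days against 8.91 in PNY at 3 days, and 9.73 in SHAM at 7 days against 7.43 in SHAM at 3 days. It was thus 6.38-fold lower in PNY and 4.91-fold higher in SHAM. At 6 hours and 1 day Arg1 had 6.98 and 9.07 in SHAM, and 6.82 and 8.12 in PNY. The SHAM array of 3 days therefore lay below those of both 1 day and 7 days. Between PNY and SHAM the difference of these changes was -4.97 ± 0.46 (SE), with limma's adjusted p of 0.522, and without the 2 arrays of 1 day it was among 34 probe sets that limma called. Serpinb2, an inhibitor of urokinase, had 5.10 in PNY at 7 days and 5.76 in PNY at 3 days, and 8.68 in SHAM at 7 days against 6.00 in SHAM at 3 days. Cd5l, a secreted protein of tissue macrophages, had 6.25 in PNY at 7 days against 7.84 in PNY at 3 days, and 8.72 in SHAM at 7 days against 7.96 in SHAM at 3 days. Prg4 (lubricin), made by mesothelium and synovium and found in mouse cavity macrophages, had 6.54 in PNY at 7 days against 7.96 in PNY at 3 days, and 8.93 in SHAM at 7 days against 8.29 in SHAM at 3 days. In Arg1, Serpinb2, Cd5l and Prg4 the SHAM array of 7 days was the highest of the 4 arrays and the PNY array of 7 days the lowest.

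The lipoxygenase Alox15 and coagulation factor V (F5), which resident macrophages of the mouse peritoneum make, were higher in SHAM. In PNY F5 differed by under 1.2-fold, while Alox15 was 1.30-fold lower. Alox15 had 5.63 in PNY at 7 days and 6.01 in PNY at 3 days, and 8.04 in SHAM at 7 days against 6.32 in SHAM at 3 days. F5 had 5.62 in PNY at 7 days and 5.70 in PNY at 3 days, and 7.16 in SHAM at 7 days against 5.86 in SHAM at 3 days, while its other probe set was 0.59 lower in PNY and 1.16 higher in SHAM. Of the 22 genes of serosal and monocyte-derived macrophages, 0 were at least 1.5-fold higher and 2 lower (all genes 0.792%) in PNY. In SHAM 4 were higher (0.929%) and 1 lower (1.05%). The medians were -0.16 in PNY and 0.11 in SHAM. Gata6, the factor that sets the identity of large cavity macrophages, differed by -0.07 in PNY and -0.24 in SHAM, and mesothelium and heart make it too.

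Other genes of type 2 immunity were lower in PNY. Rnase2a, of the eosinophil-associated ribonucleases, had 3.82 in PNY at 7 days against 7.20 in PNY at 3 days, and 4.06 in SHAM at 7 days and 3.85 in SHAM at 3 days. The chitinase-like protein Chil4 had 5.71 in PNY at 7 days against 7.85 in PNY at 3 days, and 4.60 in SHAM at 7 days against 5.08 in SHAM at 3 days. In both the PNY array of 3 days stood above the other 3. Of the 17 type 2 effectors, 5 were at least 1.5-fold lower (all genes 0.792%) and 0 higher in PNY. In SHAM 0 were lower and 3 higher (0.929%).

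Neutrophil genes split in a like way. Of 16, 6 were at least 1.5-fold lower (all genes 0.792%) and 0 higher at 7 days in PNY. In SHAM 4 were higher (0.929%) and 1 lower (1.05%). The medians were -0.47 in PNY and 0.04 in SHAM. The calprotectin subunit S100a8 had 10.85 in PNY at 7 days against 11.79 in PNY at 3 days, and 12.61 in SHAM at 7 days against 11.65 in SHAM at 3 days. Its partner S100a9 had 10.12 in PNY at 7 days against 11.01 in PNY at 3 days, and 11.86 in SHAM at 7 days against 10.93 in SHAM at 3 days. Ngp, a granule protein of immature neutrophils, differed in PNY alone, with 7.18 at 7 days against 8.34 at 3 days, and 8.05 against 8.26 in SHAM. Slfn4, a myeloid gene induced by interferon, also did so, with 6.41 at 7 days against 8.00 at 3 days in PNY, and 7.90 against 7.92 in SHAM. In 8 of the 16 the PNY array of 7 days was the lowest of the 8. The neutrophil attractants Cxcl5 and Cxcl3 were higher in both surgeries.

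Of 16 B cell genes, 2 were at least 1.5-fold lower in PNY (all genes 0.792%) and 0 in SHAM. In either limma test 0 had an unadjusted p under 0.05. The medians were -0.41 in PNY and 0.07 in SHAM, with 15 genes below 0 in PNY and 6 in SHAM. Ms4a1 (CD20) had 8.73 in PNY at 7 days against 9.54 in PNY at 3 days, and 9.48 in SHAM at 7 days against 9.79 in SHAM at 3 days. Jchain, which links IgA and IgM into polymers in plasma cells, was higher in both, with 8.09 in PNY and 9.68 in SHAM at 7 days, against 7.40 in PNY and 8.90 in SHAM at 3 days. Its mean difference fitted by limma, 0.73, was -0.16 without the PNY array of 3 days and -0.21 without the SHAM array of 7 days. Those fits lean on the PNY to SHAM difference of the other days, and the pairs themselves differed by 0.70 in PNY and 0.78 in SHAM. In SHAM alone P-selectin (Selp), the collagen receptor Mrc2 and the NF-kB inhibitor Nfkbie were 0.79, 0.92 and 0.82 higher at 7 days.

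The cells that line the airspaces showed little difference between the days. Of 16 alveolar type II and 13 alveolar type I genes, 0 passed 1.5-fold either way in either surgery, with medians of 0.08 and 0.05 in PNY and -0.01 and 0.01 in SHAM. Among 15 club cell genes 1 passed, Bpifa1 in SHAM, where 1.05% of all genes were lower. Among 21 genes of motile cilia 0 passed. Of these, 17 were above 0 in PNY and 4 in SHAM, with medians of 0.13 and -0.11. Endothelial genes were slightly higher, with 18 of 26 above 0 and 0 below 0 in both surgeries and medians of 0.11 in PNY and 0.25 in SHAM. Selp was the 1 of them that passed 1.5-fold in SHAM (0.929% of all genes were higher there). The lists of heat shock genes, metallothionein and redox genes and immediate early genes had 0 members past 1.5-fold in either surgery.

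**Figure D5:**
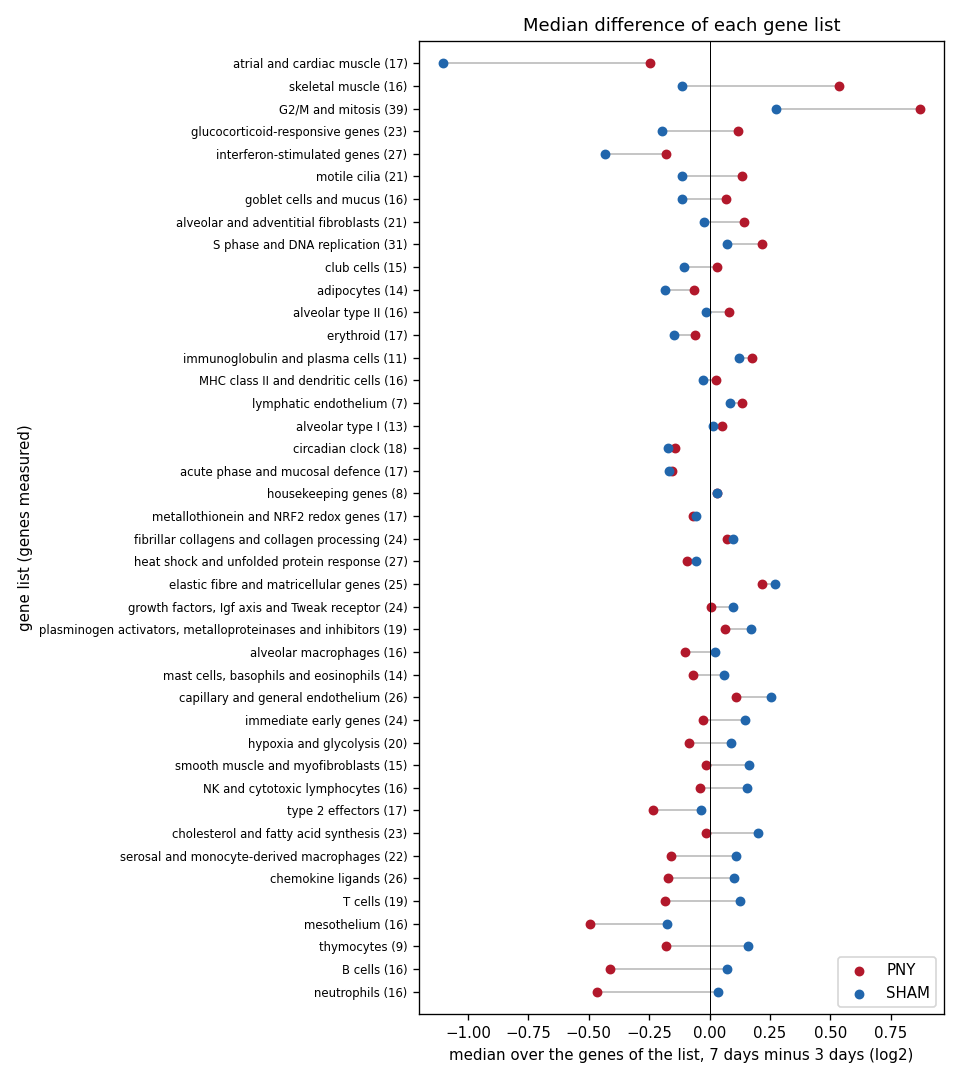
Median difference between 7 and 3 days (log2) of each of 42 gene lists within PNY (red) and within SHAM (blue), joined by a line and sorted by the gap between them, with the number of genes measured in parentheses. Mitosis genes stand furthest to the right in PNY (0.87) and atrial and cardiac genes furthest to the left in SHAM (-1.10), while neutrophil genes were -0.47 in PNY and 0.04 in SHAM.

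Some probe sets bear on how far single genes can be read. Malat1, a nuclear long noncoding RNA, was lower in both by its probe set of the highest level. That probe set had 7.27 in PNY and 8.45 in SHAM at 7 days, against 9.08 in PNY and 9.30 in SHAM at 3 days. But 2 others of its probe sets were lower in PNY (-2.58 and -2.53) and higher in SHAM (0.96 and 1.03). Further ones were also past 1.5-fold higher in SHAM (0.892 and 0.785), with -0.057 and -0.492 in PNY. The rest were under 1.5-fold in both, so the fall in SHAM rests on 1 probe set. Rpl27a, a ribosomal protein gene, had 6.59 in PNY at 7 days against 8.42 in PNY at 3 days, and 8.53 in SHAM at 7 days against 7.50 in SHAM at 3 days. The levels of 16 probe sets, its own among them, followed Rpl27a over the 8 arrays with a correlation above 0.95. The 2 of Malat1 with -2.58 and -2.53 in PNY were also among them. Of the 16, 15 were at least 1.5-fold lower in PNY (all probe sets 1.026%) and 12 higher in SHAM (1.845%). The correlation that picked them used the same arrays, so these counts follow from the choice and are no further evidence. They include 2 probe sets of Aldh2 and 1 each of Atp5a1, Hpgd, Myh9, Scp2 and Sfpq, and this group was chosen after its values were seen. What the 16 share was not tested. Cap1, which sits on actin filaments, was lower in both by its main probe set (-0.82 in PNY and -0.60 in SHAM), and a second one had -0.18 and -0.64. Map3k12 and Pam were 1.03 and 0.91 lower in PNY with under 1.2-fold difference in SHAM, and the brightest other probe set of Map3k12 had -0.19 in PNY and 0.38 in SHAM.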

How the data were processed

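The deposited log2 values were made by the authors with RMA (background correction, quantile normalization and summarization of 8 arrays together; version not given in the sources used here), so levels are relative and differences of dim or saturated probe sets are compressed. Of 45101 probe sets, 64 controls were left out. Of the 45037 tested, 34945 had 1 gene symbol, 932 several and 9160 none, by the array annotation, and 34741 of those with 1 symbol were found in RefSeq.

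Time was tested with limma 3.58.1 in R 4.3.3, with time point and surgery as terms over all 8 arrays and Benjamini-Hochberg adjustment. The difference between surgeries was tested by an interaction term of surgery with 7 against 3 days. The spread came from the PNY and SHAM arrays of all days, with 3 and 2 residual degrees of freedom. Genes within 1 surgery were classed by 1.5-fold in that surgery and 1.5-fold or under 1.2-fold in the other. Scripts ran in Python 3.11.15 with numpy 2.4.6, pandas 2.3.3, scipy 1.17.1 and matplotlib 3.10.9, and the fits were tested on simulated data.

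Named genes were the 10 with the largest mean difference each way among those that passed in both surgeries (level above the median, 5.92), the 6 with the largest each way in 1 surgery, the 5 furthest apart in opposite directions and, in each of 42 gene lists, the 3 with the largest mean difference and the 2 with the largest difference between surgeries. Other genes named were chosen after their values were seen. The comparison, its members and the lists were chosen with earlier results of these data known, and some list genes were reported by the study from these arrays, so their counts are no independent evidence.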

Additional observations from a re-analysis of the deposited data

How the results depend on the processing

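With 1 pooled array per surgery and day, no count within a surgery has an error. Probe sets past 1.5-fold numbered 854 in PNY and 1422 in SHAM. Above the median level they were 409 and 488, and at 2-fold 106 and 128. Those that passed the same way in both were 76, against 48 above the median level and 1 at 2-fold (1 higher and 0 lower, 100.0% higher against 47.4%). Those in opposite directions were 72, against 43 and 5. In PNY alone they were 423, against 179 and 40, and 231 where SHAM had to differ by under 1.1-fold. In SHAM alone they were 920, against 279 and 64, and 532 with that limit on PNY. limma called 0 probe sets over both surgeries and 2 with a trended and robust prior. For the difference between surgeries it called 0, 4 with that prior and 34 without the arrays of 1 day. Leaving out single arrays gave 0 to 34 calls, with 34 without either array of 1 day, where 1 residual degree of freedom was left. The cause was not tested. Leaving out single arrays put the mean difference of Jchain, as fitted by limma with surgery as a term, between -0.214 (without the SHAM array of 7 days) and 1.684, and at -0.16 without the PNY array of 3 days. With all probe sets of a gene averaged, the median of mesothelial genes in PNY was -0.36 and that of atrial and cardiac genes in SHAM -0.76. The same averaging, chosen after seeing the data, gave 26 genes that passed the same way and 12 in opposite directions. Centring each array or a second quantile normalization turned no direction of a named value. With surgery as a block over the 4 arrays of 7 and 3 days alone, limma called 0 probe sets (smallest adjusted p 0.132, 1219 higher and 1169 lower at an unadjusted p under 0.05). Each surgery has 1 array per day, so replicate numbers pair no arrays.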
